A study of Apis mellifera with 12 samples.

Results

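Whole honeybee embryos (*Apis mellifera carnica*) of 25–40 h after egg laying were compared with embryos of 10–15 h, to describe which RNAs disappear and which appear over this interval and whether females and males do the same. The comparison used 8 of the 12 RNA-seq libraries of the series: 2 female and 2 male libraries of 25–40 h, and 2 female and 2 male libraries of 10–15 h. All embryos were wild type. Each library was made from poly(A) RNA of a pool of 60 embryos at 25–40 h and of 100 embryos at 10–15 h, from 3 mothers, so the libraries of a group differ by pool. Female embryos were diploid and came from naturally mated queens, whereas haploid males came from unmated queens treated with CO2. Sex thus cannot be told apart from mother or ploidy here, nor from stage within the age window, which was not measured. Levels were given as FPKM, the fragments scaled to the length of a locus and to the number of mapped fragments of the library. A locus is a stretch of the genome with the transcripts of a gene or of several overlapping genes. Of the 17621 loci in each file, 17520 had a valid estimate in all 8 libraries, and the 9113 of these with a mean of at least 1 FPKM were tested. A change is the difference of log2(FPKM + 1), 25–40 h minus 10–15 h, fitted with limma with sex as a covariate, and a locus was called at an adjusted p below 0.05.

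The early insect embryo runs on RNA that the mother laid down in the egg. Such maternal RNAs set up the axes and the germ line and drive the first nuclear divisions, and they are later cleared while the embryo's own genes are switched on, a handover known as the maternal-to-zygotic transition. Gap, pair-rule and segment polarity genes then divide the body into segments, Hox genes give the segments their identity, and gastrulation brings the mesoderm inside. No library of unlaid or freshly laid eggs was part of the comparison, so the maternal origin of an RNA was not measured. In poly(A) RNA, the loss of an RNA and the loss of its tail cannot be told apart, and in whole embryos neither can fewer cells of a type and less RNA per cell.

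Most of the tested transcriptome changed. At 25–40 h 4199 loci were higher than at 10–15 h (46.1% of those tested) and 2316 were lower (25.4%), so 71.5% were called in one direction or the other. The loci that rose did so by a median of 1.74 on the log2 scale, and 1686 of them by at least 2. The loci that fell had a median change of -1.45, and 619 of them fell by at least 2. Every library of 25–40 h lay above every library of 10–15 h at 3741 loci (41.1%) and below at 1911 loci (21.0%). Median levels of the risen loci were 13.4 FPKM at 25–40 h and 1.90 FPKM at 10–15 h. For the fallen loci they were 5.63 FPKM at 25–40 h and 20.7 FPKM at 10–15 h. In the libraries of 55–70 h, which the comparison did not use, all 4 values stayed above all 4 values of 10–15 h at 81.6% of the risen loci. They stayed below at 65.8% of the fallen loci.

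The balance of rises and falls depended on how the libraries were scaled to each other. The median over all loci was +0.50 on the deposited scale, and rises made up 64.5% of the calls. With median-ratio scaling the median was 0.04, with 3579 loci higher and 3333 lower. Quantile normalization gave 3248 higher and 3420 lower around a median of -0.03, and rescaling to the same sum (TPM) gave 3698 higher and 3065 lower around a median of 0.14. Changes of single genes and lists are therefore best read against the median of +0.50. Counts of list members are read against the 46.1% of all loci that were higher and the 25.4% that were lower.

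**Figure D1:**
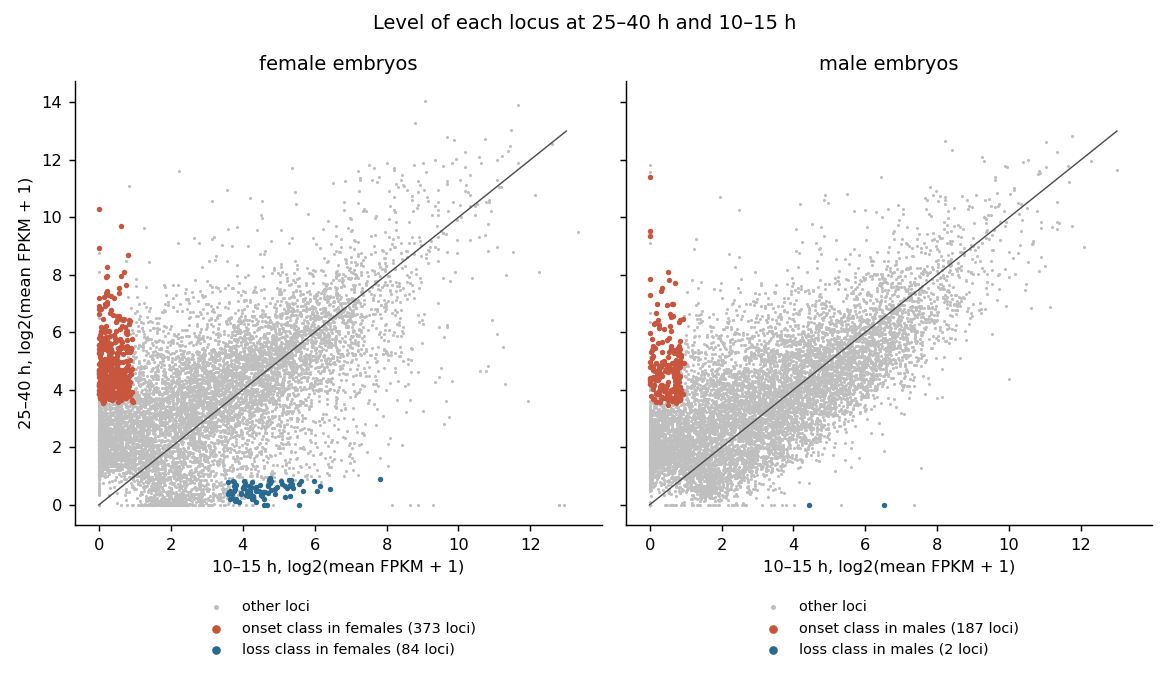
Mean level of each of the 9113 tested loci at 25–40 h (vertical) and at 10–15 h (horizontal), as log2(mean FPKM + 1) over 2 libraries, in females (left) and males (right). Red marks the 373 loci of the onset class in females and the 187 in males (under 1 FPKM in both libraries of 10–15 h, at least 10 FPKM in both of 25–40 h). Blue marks the reverse, the loss class, with 84 loci in females and 2 in males.

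Libraries of 25–40 h held more detected loci. Between 8933 and 9582 loci reached 1 FPKM at 25–40 h, against 7392 to 7837 at 10–15 h (exact permutation test of age within sex, two-sided p = 0.0556, the smallest that 36 arrangements allow). The share of all FPKM that fell on cytosolic ribosomal protein loci was 11.8% to 25.4% at 25–40 h and 4.68% to 6.45% at 10–15 h, with the same exact p. At 25–40 h this share was 20.8% and 25.4% in females and 11.8% and 14.0% in males. As FPKM are relative to the library, a group that grows can lower others, and its part in the falls below was not tested. The sum of FPKM was not fixed either. It was 515663 to 642048 in the libraries of 25–40 h and 426254 to 470383 in those of 10–15 h (exact permutation test of age within sex, two-sided p = 0.0556). The calls after rescaling to the same sum (TPM) are given above. The number of reads is not given, so the depth is unknown. Spans of loci often overlap: 61.2% of the tested loci share bases with another locus, and no source used here says whether strand entered the counting, so overlapping loci may share reads. Among 118 of the loci named here 74 overlap another, 34 of them a more abundant one.

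Among loci with a single gene name, the largest rise was that of *Twi*, the twist transcription factor that specifies mesoderm in insects (chromosome 8, 2486450 to 2496716). *Twi* was at 322 and 174 FPKM in females and 261 and 281 FPKM in males at 25–40 h, against 0.213 and 0.116 FPKM in females and 0.542 and 0.330 FPKM in males at 10–15 h. The change was 7.62 ± 0.23 (SE, n = 4 libraries per age, adjusted p = 9.02e-08, limma). *Clic*, a chloride intracellular channel gene, rose just as evenly in the sexes, with 206 and 190 FPKM in females and 247 and 168 FPKM in males at 25–40 h, against 0.547 to 0.716 FPKM at 10–15 h. *Bgb*, the partner of the Runt transcription factors in *Drosophila*, reached 885 and 646 FPKM in females and 1434 and 995 FPKM in males at 25–40 h, against 11.8 and 10.2 FPKM in females and 4.26 and 4.95 FPKM in males at 10–15 h. Its mean at 55–70 h was 23.5 FPKM, so 25–40 h held the highest of its means at the 3 ages.

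Genes of secreted signals and of muscle were also among the 12 largest rises. *ImpL2*, whose product binds insulin-like peptides in *Drosophila*, was at 105 to 155 FPKM at 25–40 h and at 0.0391 to 0.610 FPKM at 10–15 h. *cv-2*, a binding protein of bone morphogenetic proteins, was at 66.6 to 142 FPKM at 25–40 h and at 0.0849 to 0.176 FPKM at 10–15 h. *Mp20*, a muscle protein gene, was at 162 to 431 FPKM at 25–40 h and at 1.03 to 2.04 FPKM at 10–15 h. Its mean at 55–70 h was higher again, at 1010 FPKM. The serine protease gene *SP7* was at 51.0 and 37.3 FPKM in females and 140 and 112 FPKM in males at 25–40 h, and at 0.0855 to 0.247 FPKM at 10–15 h. *TyHyd*, tyrosine hydroxylase of the dopamine and cuticle tanning pathway, was at 53.5 to 91.9 FPKM at 25–40 h and at 0.0125 to 0.119 FPKM at 10–15 h. That the ranges of the ages did not overlap was a condition for the choice of these loci.

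The remaining large rises were in genes of cell metabolism and growth and in 1 carrier gene. *CytC*, cytochrome c of the respiratory chain, was at 290 and 203 FPKM in females and 172 and 196 FPKM in males at 25–40 h, against 0.770 and 0.275 FPKM in females and 3.53 and 5.42 FPKM in males at 10–15 h. *e(r)*, enhancer of rudimentary, rose by 6.12 ± 0.37 and *CSP3*, a chemosensory protein gene, by 5.81 ± 0.28. *CSP3* kept rising, to a mean of 1983 FPKM at 55–70 h. *RpS20*, of the small ribosomal subunit, was at 3087 and 3656 FPKM in females and 1219 and 1688 FPKM in males at 25–40 h, against 30.1 to 43.9 FPKM at 10–15 h. In 4 of the 8 libraries the FPKM of *RpS20* lay more than 1.5 times outside the bounds that the files give with it, so its size is uncertain.

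**Figure D2:**
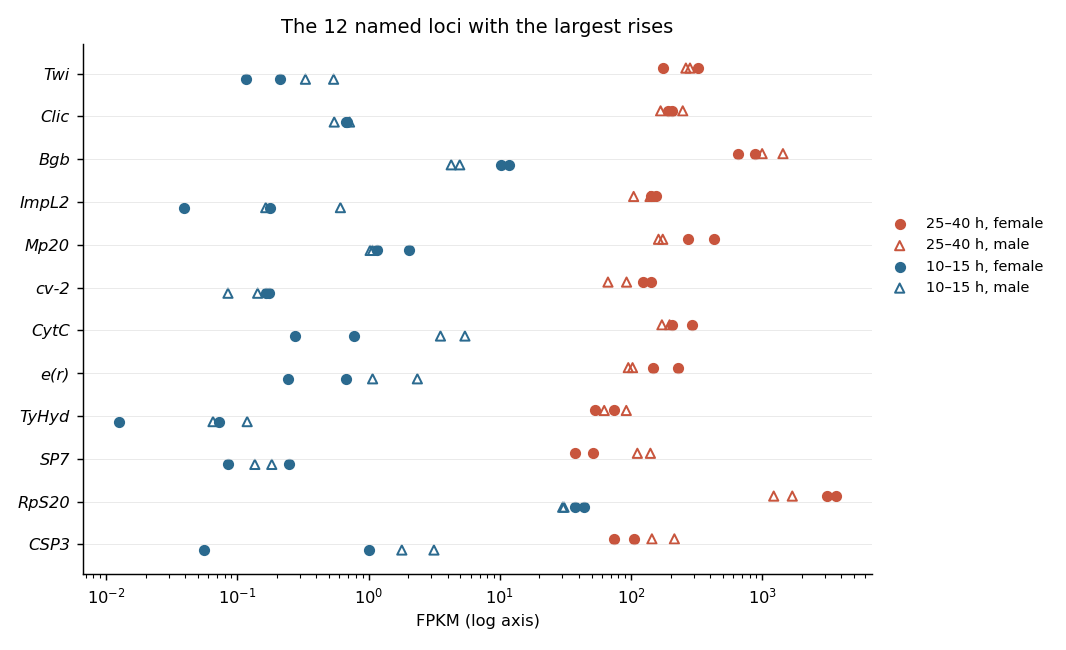
FPKM (log axis) in each of the 8 libraries for the 12 named loci with the largest called rises; red marks 25–40 h, blue 10–15 h, filled circles females and open triangles males. At every locus the 4 libraries of 25–40 h lie above the 4 of 10–15 h, which was a condition of the choice.

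At the largest falls among named loci, the remaining level at 25–40 h was mostly lower in females than in males. *Cyp314a1*, the enzyme that makes the active moulting hormone from ecdysone, was at 5.44 and 8.97 FPKM in females and 338 and 144 FPKM in males at 25–40 h, against 906 and 802 FPKM in females and 1052 and 995 FPKM in males at 10–15 h. The change was -4.47 ± 0.79 (adjusted p = 0.000724, limma), and -6.73 in females alone against -2.21 in males alone. *yl*, the vitellogenin receptor that takes yolk into the oocyte, was at 4.58 and 3.35 FPKM in females and 59.3 and 44.2 FPKM in males at 25–40 h, against 310 and 231 FPKM in females and 443 and 450 FPKM in males at 10–15 h. At 55–70 h its mean was 1.44 FPKM. *Adar*, an RNA-editing enzyme, was at 21.3 and 19.9 FPKM in females and 68.1 and 53.5 FPKM in males at 25–40 h, against 671 to 785 FPKM at 10–15 h. The loci of *Adar* and *Obp9*, an odorant-binding protein gene, overlap, so their falls may rest on shared reads. *Obp9* was at 8.04 and 9.12 FPKM in females and 185 and 103 FPKM in males at 25–40 h, against 417 to 531 FPKM at 10–15 h.

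The same split between the sexes was seen at *Baiap3*, at *T3dh*, a gene of the alcohol dehydrogenase family, at *Amci*, a chymotrypsin inhibitor, at *Knr* and at the cuticle protein gene *CPR13*. *T3dh* was at 2.0 and 1.1 FPKM in females and 103 and 112 FPKM in males at 25–40 h, against 188 and 334 FPKM in females and 375 and 304 FPKM in males at 10–15 h. *Amci* was at 21.8 and 27.0 FPKM in females and 316 and 205 FPKM in males at 25–40 h, against 1738 and 1348 FPKM in females and 1067 and 1241 FPKM in males at 10–15 h. *Dat* was low in both sexes and its sexes lay close together, with 3.31 and 2.40 FPKM in females and 3.34 and 3.72 FPKM in males at 25–40 h, against 37.2 to 59.8 FPKM at 10–15 h. *Tpx-4*, a thioredoxin peroxidase gene, fell by 3.50 ± 0.27 on the log2 scale. *CPR13* did not stay low, since its mean at 55–70 h was 183 FPKM.

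The largest named fall belonged to 1 of the 2 loci of *cad*, the caudal gene of posterior patterning, and cannot be read on its own. That locus (chromosome 1, 8938827 to 8943581) was at 3.66 and 1.11 FPKM in females and 14.3 and 4.72 FPKM in males at 25–40 h, against 105 to 132 FPKM at 10–15 h, a change of -4.48 ± 0.45. The other *cad* locus (8929952 to 8943547) overlaps it and was at 236 and 110 FPKM in females and 723 and 487 FPKM in males at 25–40 h, against 152 to 178 FPKM at 10–15 h. That change of 0.90 ± 0.38 was not called (adjusted p = 0.0581, limma), but passed the threshold without either female library of 10–15 h (1.09 and 1.05) or without female replicate 2 of 25–40 h (1.29). Summed over both loci, *cad* had 240 and 112 FPKM in females and 737 and 492 FPKM in males at 25–40 h, against 271 to 297 FPKM at 10–15 h. The sum thus lay below the 10–15 h range in both female libraries and above it in both male libraries. At 55–70 h the loci had means of 0.102 and 3.71 FPKM.

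**Figure D3:**
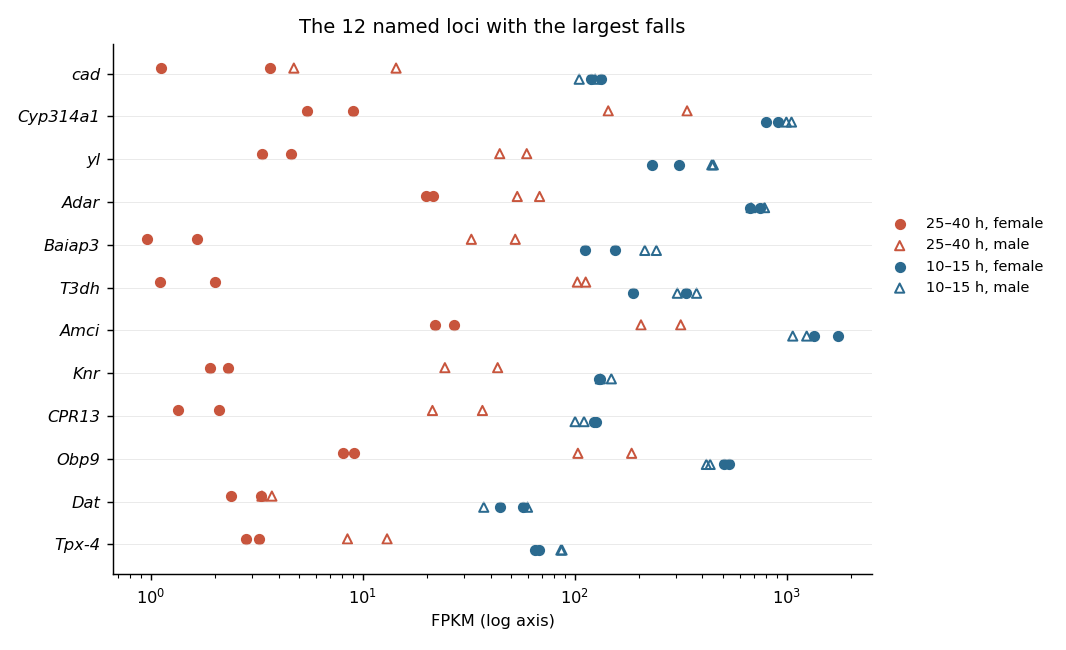
FPKM (log axis) in each of the 8 libraries for the 12 named loci with the largest called falls; colours and symbols as for the rises. At every locus the libraries of 25–40 h lie below those of 10–15 h, which was a condition of the choice. The female libraries of 25–40 h (filled red) lie to the left of the male ones (open red), at *Dat* by the smallest margin.

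Loci with only a LOC number held larger changes still, and 3 of these are given, chosen after their values were seen. LOC100578044 (chromosome 15) was at 2490 and 3759 FPKM in females and 1704 and 1666 FPKM in males at 25–40 h, against 2.29 to 3.76 FPKM at 10–15 h. LOC100578532 (chromosome 7) was at 1887 and 2462 FPKM in females and 458 and 754 FPKM in males at 25–40 h, against 0.571 to 2.05 FPKM at 10–15 h. Both were higher in females than in males at 25–40 h. LOC100577408 (chromosome 8) was at 6.88 and 5.17 FPKM in females and 19.7 and 20.1 FPKM in males at 25–40 h, against 675 to 1047 FPKM at 10–15 h.

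Onset and loss were also read by level. Under 1 FPKM in every library of 10–15 h and at least 10 FPKM in every library of 25–40 h were 128 loci, the onset class. Only 1 locus met the reverse rule for loss, an unnamed one of 132 bases listed at 0 in all 4 libraries of 25–40 h. These classes are descriptions, and their sizes depend on scaling and limits, with 49 onset and 10 loss loci under quantile normalization and 483 and 52 at limits of 2 and 5 FPKM. Of the onset loci 42 had a gene symbol, 64 a LOC number, 17 no name and 5 several names. All 4 libraries of 55–70 h were still at 10 FPKM or more at 81 of the 128. The members nearest the limits were at 0.990 FPKM at 10–15 h and at 10.1 FPKM at 25–40 h.

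The 42 named onset loci covered several functions. Transcription factors among them included *Twi*, *Kr*, *Knrl*, *Dfd*, *Sox15*, *hbn* and *ap*. *hbn*, a homeobox gene of the head in *Drosophila*, was at 161 and 62.3 FPKM in females and 193 and 174 FPKM in males at 25–40 h, against 0 to 0.315 FPKM at 10–15 h, and its mean at 55–70 h was only 1.17 FPKM. Enzymes and carriers of the cell surface and of secretion included *Hs6st*, which sulphates heparan sulphate, and *O-fut1*, which fucosylates Notch in *Drosophila*. *Wat* continued upward to a mean of 163 FPKM at 55–70 h. Genes of the mitochondrial ribosome were there with *mRpL18*, *mRpL30* and *mRpS11*. *sty* (sprouty) and *Mkp3*, both inhibitors of receptor tyrosine kinase signalling in *Drosophila*, were members, and *sty* was at 11.2 to 15.7 FPKM at 25–40 h, against 0.499 to 0.754 FPKM at 10–15 h.

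Among the tested loci 97 were listed at 0 in all libraries of 10–15 h and above 0 in all of 25–40 h, and 14 the other way round. Of the 97 and 14 loci, 89 and 14 had no gene name, and at 58 and 14 a value lay more than 1.5 times outside its bounds, so a listed 0 may be a failed estimate there. These sets share loci with the onset and loss classes, and the 1 loss locus is among the 14. A value lay as far outside its bounds at 10 of the 128 onset loci and at the loss locus.

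Falling loci kept a large remainder on the deposited scale. Over the 1306 fallen loci with at least 10 FPKM at 10–15 h, the median share left at 25–40 h was 33.5% and 25.8% in the female libraries and 37.0% and 34.1% in the male ones. The share was under 10% at 271 and 321 of these loci in females and at 38 and 54 in males. At most of these 1306 loci RNA was thus left at 25–40 h in either sex, and a share under 10% was more frequent in both female libraries than in the male ones. The shares were not rescaled for the larger sum of FPKM at 25–40 h.

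Regulators of the germ line and of maternal RNA moved both ways. Of 18 tested members 8 fell and 5 rose, with a median of -0.22, against 25.4% and 46.1% of all loci and a median of +0.50. The median of the list was 0.18 in females and -0.77 in males. At no member was this difference between the sexes called (interaction of sex and age, limma). *vas*, the germ cell helicase vasa, was at 57.4 and 33.9 FPKM in females and 104 and 95.9 FPKM in males at 25–40 h, against 167 and 154 FPKM in females and 578 and 608 FPKM in males at 10–15 h. *Dcp1*, of the complex that removes the cap before RNA decay, was at 57.1 and 31.2 FPKM in females and 109 and 102 FPKM in males at 25–40 h, against 286 to 462 FPKM at 10–15 h. *orb*, an RNA-binding protein that controls the translation of maternal RNA, was at 3.24 to 5.28 FPKM at 25–40 h, against 23.1 to 43.4 FPKM at 10–15 h. *larp*, another RNA-binding protein gene, fell by 2.39 ± 0.21 on the log2 scale. The members that rose act in RNA control in other settings too: *Imp*, an RNA-binding protein, by 2.95 ± 0.27, *Upf1*, the helicase of nonsense-mediated decay, by 2.28 ± 0.27, *mago*, of the exon junction complex, by 1.82 ± 0.18, and *spn-E*, of the piRNA pathway, by 1.54 ± 0.27.

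Regulators of genome activation and chromatin moved both ways, 4 of 10 up (40%) and 3 down (30%), near the 46.1% and 25.4% of all loci. Their median of 0.21 lay below that of all loci and was negative with each of the other scalings. *Pc*, the Polycomb protein, was at 10.9 to 14.6 FPKM at 25–40 h, against 34.9 to 58.8 FPKM at 10–15 h. *Psq*, a DNA-binding partner of the trithorax and Polycomb systems in *Drosophila*, rose by 1.49 ± 0.22. *grh*, the grainyhead factor of the epidermis, was at 4.14 and 6.48 FPKM in females and 0.544 and 0.959 FPKM in males at 25–40 h, against 0.0121 to 0.194 FPKM at 10–15 h, a rise that was not called with quantile normalization (0.82, adjusted p = 0.0901, limma).

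Among 9 anterior, terminal and gap genes 4 rose and 2 fell (44.4% and 22.2%), near the 46.1% and 25.4% of all loci. *Kr* (Krüppel) was at 37.2 and 23.5 FPKM in females and 52.2 and 37.8 FPKM in males at 25–40 h, against 0.230 to 0.509 FPKM at 10–15 h. *Knrl* was at 14.2 to 25.7 FPKM at 25–40 h, against 0 to 0.0783 FPKM at 10–15 h. *ems*, a head gap gene, rose by 3.24 ± 0.34, and *Tll* (tailless) by 0.82 ± 0.21, but *Tll* was not called with any of the other scalings. *oc*, the orthodenticle gene of the head, was at 72.6 and 28.8 FPKM in females and 165 and 136 FPKM in males at 25–40 h, against 295 and 228 FPKM in females and 198 and 194 FPKM in males at 10–15 h (-1.43 ± 0.44). This fall was not called without female replicate 1 of 10–15 h (-1.15, adjusted p = 0.0502, limma).

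In the list of pair-rule genes, to which *ppa* and *ten-M* were also assigned, 5 of 6 loci rose. *h* (hairy) was at 143 and 148 FPKM in females and 127 and 126 FPKM in males at 25–40 h, against 0.655 and 0.0368 FPKM in females and 4.08 and 3.64 FPKM in males at 10–15 h. *slp* (sloppy paired) was at 103 and 149 FPKM in females and 40.6 and 36 FPKM in males at 25–40 h, against 0.314 and 0.0186 FPKM in females and 1.56 and 1.61 FPKM in males at 10–15 h. *Prd* (paired) rose by 3.95 ± 0.34, *ppa* by 1.92 ± 0.25 and *ten-M* by 1.92 ± 0.24. *eve* (even-skipped) was already high and fell, with 96.0 and 82.9 FPKM in females and 260 and 236 FPKM in males at 25–40 h, against 350 and 314 FPKM in females and 258 and 358 FPKM in males at 10–15 h. The ages overlapped in males only.

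Segment polarity, Hedgehog and Wnt genes rose at 12 of 15 loci, with a median of 2.26, and 1 fell. *En* (engrailed) was at 49.2 and 93.2 FPKM in females and 8.61 and 12.9 FPKM in males at 25–40 h, against 0.0296 to 0.0961 FPKM at 10–15 h. *Ci*, the transcription factor of the Hedgehog pathway, was at 43.3 and 55.0 FPKM in females and 6.97 and 6.63 FPKM in males at 25–40 h, against 0.00303 to 0.0707 FPKM at 10–15 h. *arm*, beta-catenin of the Wnt pathway and of cell junctions, was at 195 to 426 FPKM at 25–40 h, against 3.45 to 8.92 FPKM at 10–15 h. *Su(fu)*, the inhibitor of *Ci*, rose by 3.39 ± 0.22. *disp*, needed to release Hedgehog, was at 6.69 to 7.32 FPKM at 25–40 h, against 32.4 and 59.2 FPKM in females and 14.2 and 15.7 FPKM in males at 10–15 h.

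Of 7 tested loci in the list of Hox genes and their cofactor 5 rose (71.4%, against 46.1% of all loci) and none fell (limma). With median-ratio scaling or TPM 4 rose and 2 fell, and with quantile normalization 2 rose and 2 fell. *Dfd* (Deformed) was at 49.1 and 42.6 FPKM in females and 103 and 151 FPKM in males at 25–40 h, against 0.222 to 0.615 FPKM at 10–15 h. *Abd-A* (abdominal-A) was at 13.6 and 10.7 FPKM in females and 1.96 and 4.11 FPKM in males at 25–40 h, against 0.0427 to 0.110 FPKM at 10–15 h. *lab* (labial) was at 7.55 and 12.1 FPKM in females and only 0.713 and 0.841 FPKM in males at 25–40 h, against 0.392 to 0.489 FPKM at 10–15 h, and its rise was not called with quantile normalization. At 25–40 h *Dfd* was higher in males, and *Abd-A* and *lab* were higher in females. Only *lab* and *Abd-A* had a called interaction of sex and age (adjusted p = 0.00859 and 0.0402, limma).

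Dorsoventral patterning and mesoderm genes were called higher at 6 and lower at 2 of 13 loci, a share near the background of 46.1%, and their median of 0.55 turned to -0.06 with quantile normalization. Beside *Twi*, *Snail* was at 46.6 and 47.0 FPKM in females and 27.4 and 42.4 FPKM in males at 25–40 h, against 0.115 to 1.25 FPKM at 10–15 h. *htl*, a fibroblast growth factor receptor of the mesoderm, rose by 1.1 ± 0.27. *dpp*, the dorsal signal of the bone morphogenetic protein family, was at 16.2 to 22.3 FPKM at 25–40 h, against 37.5 to 62.9 FPKM at 10–15 h. *Mad*, the transcription factor downstream of it, fell by 1.73 ± 0.24 at its more abundant locus. Neural and proneural genes rose at 5 of 8 loci and fell at 1 (62.5% and 12.5%, against 46.1% and 25.4% of all loci). *eya* (eyes absent) was at 45.3 and 50.9 FPKM in females and 6.73 and 11.5 FPKM in males at 25–40 h, against 0.134 to 0.345 FPKM at 10–15 h. *Six4* was at 16.1 and 34.8 FPKM in females and 0.753 and 1.05 FPKM in males at 25–40 h, against 0.0111 to 0.0389 FPKM at 10–15 h. *Cas* and *Su(H)*, the transcription factor of Notch signalling, rose by 3.24 ± 0.31 and 2.06 ± 0.21. In the list of Sox, Fox and other early regulators 4 of 7 loci rose and 1 fell (57.1% and 14.3%).

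Lists of protein synthesis are read against the 46.1% of all tested loci that were higher. All 49 tested loci of cytosolic ribosomal proteins were higher at 25–40 h, by 0.44 to 5.93 with a median of 2.13, and 42 to 46 of them were still called with the other scalings. Mitochondrial ribosomal proteins rose at 31 of 47 loci and fell at 2, with a median of 1.09. *mRpL18* was at 28.5 to 43.8 FPKM at 25–40 h, against 0.0594 to 0.276 FPKM at 10–15 h. Aminoacyl-tRNA synthetases, which charge transfer RNA, rose at 9 of 13 loci, and none fell (limma), or 1 with each other scaling. Translation factors rose at 5 of 10 (50%), near the background, and fell at 1. *eIF-3p66*, a subunit of initiation factor 3, was at 127 to 220 FPKM at 25–40 h, against 8.52 to 16.7 FPKM at 10–15 h.

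Heat shock and chaperone genes rose at 8 of 10 loci and fell at 1. *Hsc70-4*, a constitutive chaperone, was at 1986 to 2561 FPKM at 25–40 h, against 124 to 264 FPKM at 10–15 h, and *Hsp90* rose by 2.50 ± 0.28. The proteasome rose at 5 of 7 loci, with *Prosalpha7* at 286 to 488 FPKM at 25–40 h and 28.6 to 60.8 FPKM at 10–15 h. Splicing factors rose at 9 of 12 loci and fell at 1, but at only 3 and 3 with median-ratio scaling. *Snf*, of the U1 and U2 particles, was at 75.1 to 116 FPKM at 25–40 h, against 0.499 and 2.81 FPKM in females and 6.76 and 12.6 FPKM in males at 10–15 h. *Snrnp27* fell by 1.15 ± 0.18. Mediator subunits, which link transcription factors to RNA polymerase, rose at 10 of 19 loci (52.6%, against 46.1% of all loci) and fell at 3, or 7 and 6 with median-ratio scaling, with *MED31* at 4.94 ± 0.34. Nuclear genes of the respiratory chain rose at 16 of 28 loci (57.1%) and fell at 1, or 11 and 5 with median-ratio scaling, whereas none of the 8 mitochondrial genome genes was called (limma; none at an unadjusted p under 0.05 either). Their changes ran from 0.16 to 0.52, and their median turned from 0.40 to between -0.13 and -0.01 with the other scalings. These values average over the sexes: the median change of the 8 genes was -0.27 in females and 0.97 in males. At none of the 8 was the interaction of sex and age called.

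**Figure D4:**
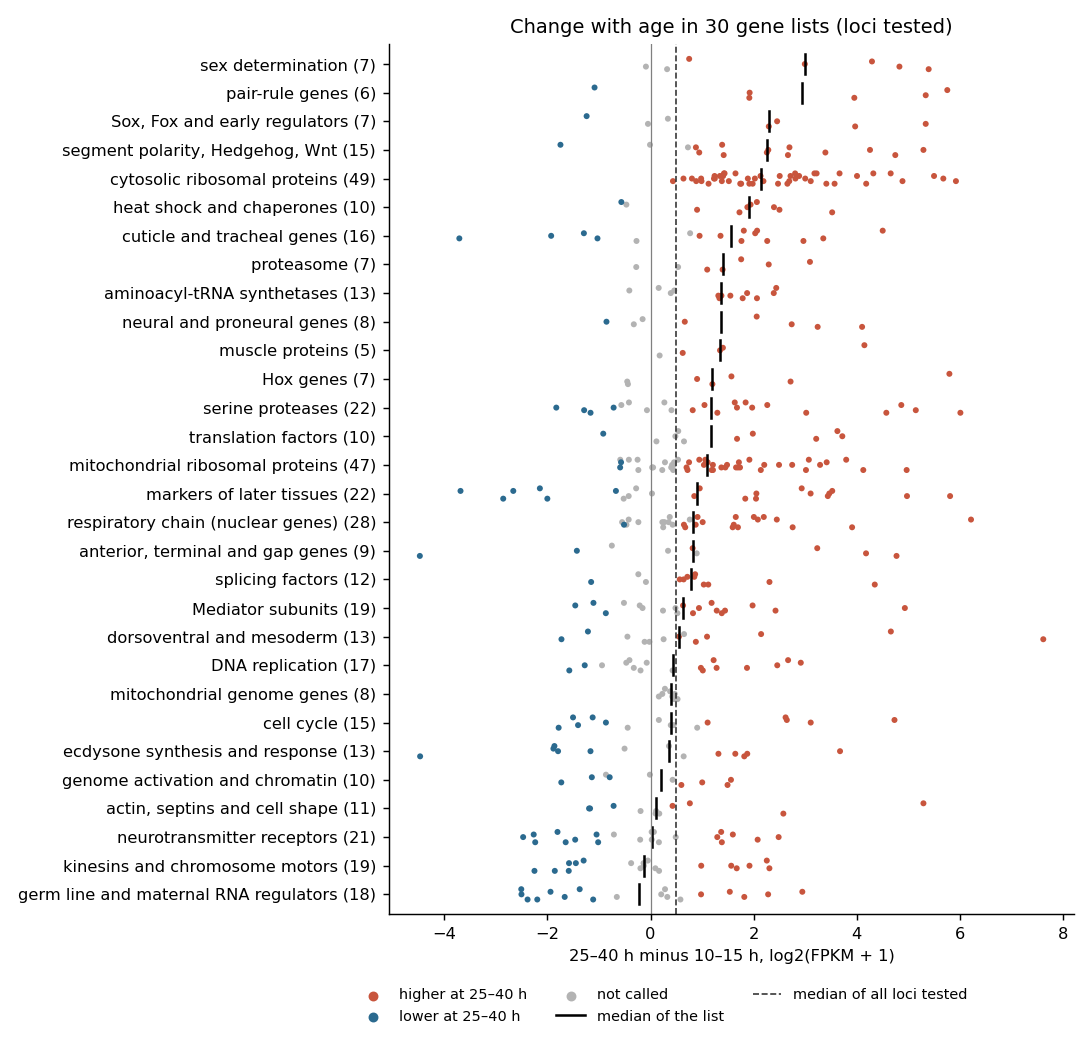
Change with age, 25–40 h minus 10–15 h on the log2(FPKM + 1) scale, of every tested locus in 30 gene lists (number of loci in brackets), ordered by the median of the list (black bar). Red points were higher, blue points lower and grey points not called; the dashed line is the median of all 9113 loci, 0.50. All 49 cytosolic ribosomal protein loci were called higher, at changes of 0.44 to 5.93, and germ line and maternal RNA regulators have the lowest median, -0.22.

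Of 15 cell cycle loci 5 rose and 5 fell, and the median of 0.39 turned slightly negative with each other scaling. *CycD*, the cyclin that starts the cycle in G1, has a pair of overlapping loci and rose at both, with summed levels of 110 and 117 FPKM in females and 33.2 and 55.3 FPKM in males at 25–40 h, against 2.17 to 2.66 FPKM at 10–15 h. *Dp*, the partner of E2F, and *Ial*, an Aurora-type kinase of mitosis, rose by 2.64 ± 0.26 and 2.62 ± 0.24. *geminin*, which blocks the licensing of replication, was at 208 and 167 FPKM in females and 275 and 249 FPKM in males at 25–40 h, against 573 and 385 FPKM in females and 789 and 895 FPKM in males at 10–15 h. Its target *dup* (Cdt1) fell by 1.78 ± 0.29, *grp* (Chk1) by 1.12 ± 0.20 and the mitotic cyclin *CycB3* by 1.41 ± 0.25.

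DNA replication genes rose at 8 of 17 loci (47.1%, against 46.1% of all loci) and fell at 2, or 6 and 6 with median-ratio scaling. Their median of 0.43 turned to -0.36 with quantile normalization. It was 1.1 in females and -0.24 in males, and at 4 of the 17 loci the change was more positive in females by the interaction test. *Mcm5*, of the replicative helicase, was at 17.8 to 41.8 FPKM at 25–40 h, against 1.28 and 1.06 FPKM in females and 4.95 and 5.56 FPKM in males at 10–15 h. Another subunit of the same helicase, *Mcm7*, was at 35.5 and 28.3 FPKM in females and 13.8 and 13 FPKM in males at 25–40 h, against 55.2 to 69.7 FPKM at 10–15 h. *RpA-70*, *DNApol-delta* and *Psf2* rose by 2.67 ± 0.52, 2.46 ± 0.31 and 1.87 ± 0.26, and *RfC4* fell by 1.28 ± 0.22. Kinesins, the motors of spindles and transport, rose at 6 of 19 loci and fell at 6 (31.6% each, against 46.1% and 25.4% of all loci). Their median was 0.32 in females and -0.76 in males, and at none was the interaction of sex and age called. *kinesin-8* was at 8.16 and 2.79 FPKM in females and 15.6 and 28.9 FPKM in males at 25–40 h, against 23.4 and 13.8 FPKM in females and 169 and 144 FPKM in males at 10–15 h. *kinesin-2A* fell by 1.86 ± 0.23, while *kinesin-4A* and *kinesin-12* rose by 2.31 ± 0.31 and 2.26 ± 0.25. Genes of actin, septins and cell shape rose at 4 of 11 loci and fell at 3, and their median of 0.11 turned negative with each other scaling. *alpha-Cat*, which ties *arm* to actin, rose by 2.58 ± 0.29, and *par-6* and *RhoGEF2*, of cell polarity and of furrow formation, fell by 1.19 ± 0.25 and 1.17 ± 0.28.

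Ecdysone synthesis and response genes split 5 to 5 among 13 loci. *CYP306A1*, which acts earlier in the synthesis than *Cyp314a1*, was at 14.6 to 37.3 FPKM at 25–40 h, against 0.612 to 1.86 FPKM at 10–15 h, the opposite of *Cyp314a1*. The response gene *E75* rose by 1.88 ± 0.31, and *E74* and *Hr4* fell by 1.79 ± 0.18 and 1.87 ± 0.28. Muscle proteins rose at 4 of 5 loci, with *Mlc2*, a myosin light chain, at 24.7 to 39.0 FPKM at 25–40 h and at 0.490 to 1.08 FPKM at 10–15 h. Its mean at 55–70 h was 956 FPKM. Cuticle and tracheal genes rose at 10 of 16 loci and fell at 4 (62.5% and 25%, against 46.1% and 25.4% of all loci). Of these, *CPF1* and *CPR21* rose by 4.51 ± 0.27 and 2.97 ± 0.21. Serine proteases and their homologs rose at 13 of 22 loci and fell at 4 (59.1% and 18.2%).

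The list of markers of later larval and adult tissues holds hexamerins, royal jelly proteins, vitellogenin, odorant carriers and opsins. Some members were already present at 10–15 h, so here they do not mark such tissues. Of 47 matched loci 22 reached the filter, and 12 of these rose and 6 fell, or 10 and 10 with quantile normalization and 11 and 9 with each of the other scalings. *CSP6* was at 598 and 490 FPKM in females and 54.2 and 106 FPKM in males at 25–40 h, against 2.38 to 8.72 FPKM at 10–15 h. *Obp13* was at 16.5 and 19.2 FPKM in females and 3.97 and 11.2 FPKM in males at 25–40 h, against 0 to 0.218 FPKM at 10–15 h. The storage protein genes *HEX70b* and *Hex70c* and the arrestin-like *ArrL3* fell instead, by 2.66 ± 0.31, 2.15 ± 0.40 and 2.86 ± 0.40. At 10–15 h *HEX70b* was at 50.1 to 84.6 FPKM. *Obp9*, given above, had the largest fall of the list and was at 417 to 531 FPKM at 10–15 h. Neurotransmitter receptors rose at 6 of 21 loci and fell at 8, with a median of 0.02 that turned negative with each other scaling. The GABA receptor *Rdl* and the dopamine receptor *Dop3* fell by 2.47 ± 0.22 and 2.24 ± 0.32, with means of 1.08 and 0.689 FPKM at 25–40 h against 10.6 and 6.87 FPKM at 10–15 h, and the glutamate-gated channel *GluCl* rose by 2.49 ± 0.21.

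Among the genes of sex determination, *Fem* and *Csd* rose most, *Dsx* rose less and *tra2* was not called on the deposited scale. *Csd* is the primary signal, which is heterozygous in females and hemizygous in males, and it directs the splicing of *Fem*, whose product acts with *tra2* on *Dsx*. *Fem* (chromosome 3) was at 76.4 and 37.7 FPKM in females and 38.4 and 91.0 FPKM in males at 25–40 h, against 0.257 and 0.213 FPKM in females and 0.660 and 0.360 FPKM in males at 10–15 h. It belonged to the onset class. Of 3 overlapping *Csd* loci the longest was at 45.8 and 19.9 FPKM in females and 27.2 and 31.4 FPKM in males at 25–40 h, against 0.0417 to 0.181 FPKM at 10–15 h (4.83 ± 0.26). A second *Csd* locus rose by 4.30 ± 0.33. The third was at 59.3 and 65.9 FPKM in males at 25–40 h and is listed at 0 in the other 6 libraries, and both male values lay more than 1.5 times outside their bounds. Summed over the 3 loci, *Csd* had 84.8 and 44.1 FPKM in females and 108 and 155 FPKM in males at 25–40 h, against 0.567 to 1.29 FPKM at 10–15 h. *tra2* was present throughout, at 168 to 283 FPKM at 25–40 h and 227 to 271 FPKM at 10–15 h (-0.09 ± 0.18, adjusted p = 0.673, limma). It was called lower at 25–40 h with median-ratio scaling (-0.62, adjusted p = 0.0183, limma) and with TPM (-0.50, adjusted p = 0.0337, limma). *Dsx* was at 5.11 and 5.26 FPKM in females and 2.74 and 2.75 FPKM in males at 25–40 h, against 3.12 and 2.44 FPKM in females and 1.39 and 0.987 FPKM in males at 10–15 h, a rise of 0.75 ± 0.19 that turned to -0.04 with quantile normalization. *glu*, the gene of eye dimorphism that the study is about, lies in a locus of 3 genes without a valid estimate in all libraries and was not tested. That locus was at 232 and 249 FPKM in females and 481 FPKM in 1 male library at 25–40 h, against 1405 to 1913 FPKM at 10–15 h.

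Females and males changed in the same direction at most loci. The sign of the mean change was shared at 7805 of 9113 loci (85.6%) and at 6502 of the 6515 loci called with age (99.8%). The call with age uses both sexes, and opposite signs hinder it, so the second share largely describes the choice. A stricter reading called loci in 1 sex and read their direction in the libraries of the other. Female libraries alone called 5690 loci (62.4%), and 5498 of these (96.6%) went the same way in males. Male libraries alone called 6255 loci (68.6%), and 5867 of them (93.8%) went the same way in females. As a description across loci, which share libraries and are not replicates, the correlation of the 2 changes was 0.865. The slope of the male on the female change was 0.70. Among loci called higher, the rise was larger in females at 71.7%, and among loci called lower the fall was larger in females at 66%.

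**Figure D5:**
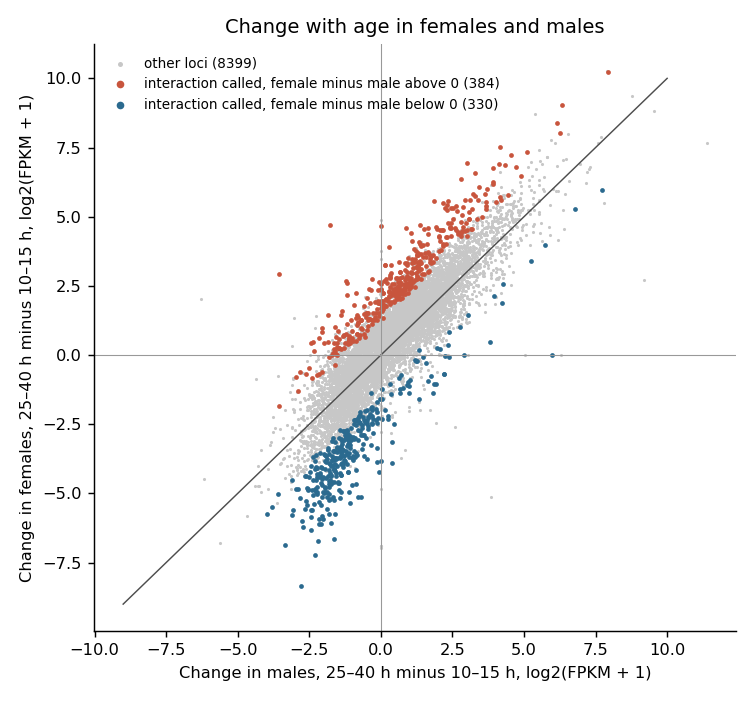
Change with age, 25–40 h minus 10–15 h on the log2(FPKM + 1) scale, in females (vertical) and males (horizontal) at each of the 9113 tested loci; the line marks equal change. Red and blue points are the 384 and 330 loci whose change differed between the sexes, and most of them lie further from 0 in females.

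The size of the change differed between the sexes at 714 loci (7.83%; 2483 at an unadjusted p under 0.05), by the interaction of sex and age in limma. Of these, 384 (4.21%) had a more positive change in females, of which 268 were loci that rose, and 330 (3.62%) had a more negative one, of which 278 were loci that fell. This balance turned with the scaling: 457 of 1223 called interactions were more positive in females with median-ratio scaling, 437 of 971 with quantile normalization and 358 of 772 with TPM, and 21 of 66 without male replicate 1 of 10–15 h. Opposite signs in the sexes were less common, with 104 loci up in females and down in males and 36 the other way round. At the 384 loci the median female minus male difference was 1.5 at 25–40 h and -0.32 at 10–15 h, and at the 330 loci it was -1.69 at 25–40 h and 0.59 at 10–15 h. As these loci were chosen by that difference, the medians describe the choice. Females and males at 25–40 h correlated at 0.880 to 0.931 across loci, and at 10–15 h at 0.921 to 0.955, ranges that overlap. With the libraries of 10–15 h, those of 25–40 h correlated at 0.549 to 0.608 in females and 0.632 to 0.732 in males. Whether the sexes differed in mean stage within the window of 25–40 h was not tested. The count rests on few libraries: it was 66 without male replicate 1 of 10–15 h, 120 without male replicate 2 of 10–15 h, 205 without male replicate 1 of 25–40 h, 231 without female replicate 2 of 10–15 h and 407 without female replicate 1 of 10–15 h.

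The classes by level were larger in females. Read in females alone, 373 loci were at 10 FPKM or more at 25–40 h and under 1 FPKM at 10–15 h, and in males alone 187 were, with 128 shared (34.3% of the female and 68.4% of the male loci). Of the 245 loci that met the rule in females only, 134 were at 1 FPKM or more in a male library of 10–15 h and 136 were under 10 FPKM in a male library of 25–40 h. Loss was met by 84 loci in females and by 2 in males. The 84 loci had a median of 0.447 FPKM in females and 3.42 FPKM in males at 25–40 h, against 20.2 FPKM in females and 18.3 FPKM in males at 10–15 h. A median of 1.74% was left in females and of 20.3% in males, and 83 of the 84 were lower in males too. As the 84 were chosen on the female values, the female figures describe the choice, and the male ones were not used for it.

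Named genes of the female loss class include *tj* (traffic jam), a transcription factor of the gonad, *Cac*, a calcium channel gene, *Apid1* and *Myo3*. *tj* was at 0.717 and 0.410 FPKM in females and 4.55 and 3.13 FPKM in males at 25–40 h, against 26.1 and 23.7 FPKM in females and 20.1 and 18.9 FPKM in males at 10–15 h. *Myo3* was at 0.223 and 0.544 FPKM in females and 10.7 and 5.99 FPKM in males at 25–40 h, against 40.9 and 58.9 FPKM in females and 27.7 and 32.8 FPKM in males at 10–15 h. The locus of the microRNA genes *Mir100* and *Mirlet7* was at 0.267 and 0.306 FPKM in females and 1.54 and 1.80 FPKM in males at 25–40 h, against 10.7 and 11.3 FPKM in females and 5.43 and 6.21 FPKM in males at 10–15 h. In each of these the females of 25–40 h lay below the males, and all 4 libraries of 25–40 h lay below all 4 of 10–15 h.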

How the data were processed

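The authors deposited, for each library, a table of FPKM per locus with a status and a lower and an upper bound. Per the submitters' processing notes, the tools were TopHat2, Bowtie2 2.2.6 and Cufflinks 2.2.1. The genome build is not stated, so positions are those of the files. No read counts were used, so the depth behind each FPKM is unknown. Libraries were grouped by the labels, and nothing in them says that replicates came from separate mothers, so p-values measure only the spread between pools. Per the labels, eggs were taken from the colonies between 5 and 15 h after laying and then incubated until they reached the age of their group.

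Loci with status OK in all 8 libraries and a mean of at least 1 FPKM were tested on log2(FPKM + 1) with limma 3.58.1 (R 4.3.3) with a variance trend, age and sex as terms and Benjamini-Hochberg adjustment over all 9113 loci at 0.05. The interaction was fitted on the means of the 4 groups of sex and age. Fold changes on this scale understate the change of low loci. The age fit and the interaction fit were tested on simulated data, and the fits of 1 sex alone were not. Tables and plots used Python 3.11.15, pandas 2.3.3, numpy 2.4.6 and matplotlib 3.10.9.

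Named loci were the 12 largest called rises and falls with a single gene name, above 0 in all libraries, not overlapping between ages and of the same direction in both sexes, then up to 4 called members per direction of each of 30 gene lists, the loci with the smallest interaction p, and the sex determination genes. Other members of the onset and loss classes, and LOC loci, were chosen after their values were seen. The members and lists were chosen with earlier results of these data known, and 6 lists (mitochondrial ribosomal proteins, respiratory chain, Mediator, aminoacyl-tRNA synthetases, translation factors and neurotransmitter receptors) were added after the symbols in the files were seen. Lists are described by counts and medians only. Other pseudocounts, filters, scalings, fits and left-out libraries were tried.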

Additional observations from a re-analysis of the deposited data

Results flagged for a closer look

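The change with age differed between females and males at 714 loci by the interaction of sex and age (limma), and the values below are female minus male differences of the change on the log2(FPKM + 1) scale. The sexes cannot be told apart from mother, ploidy or stage within the age window here. Among named genes *T3dh* had an interaction of -5.00, *Cyp314a1* of -4.53, *Obp9* of -4.15, *Amci* of -3.75 and *CPR13* of -3.67, in each case with a deeper fall in females. The interaction of *CPR13* was no longer called with all 12 libraries in the fit (adjusted p = 0.0821, limma). The short *Csd* locus had -5.99, a value fitted against libraries listed at 0 that does not measure a fold.

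LOC100576271 had an interaction of -5.55, with 9.04 and 13.3 FPKM in females and 377 and 178 FPKM in males at 25–40 h, against 3686 and 4164 FPKM in females and 1810 and 1818 FPKM in males at 10–15 h. LOC100578989 had -4.29, with 1.08 and 1.03 FPKM in females and 20.2 and 14.1 FPKM in males at 25–40 h, against 81.6 and 85.5 FPKM in females and 31.5 and 42.4 FPKM in males at 10–15 h. LOC100578068 went opposite ways, with 6.48: it was at 9.14 and 8.84 FPKM in females and 6.44 and 5.82 FPKM in males at 25–40 h, against 2.05e-07 and 0.703 FPKM in females and 73.2 and 92.2 FPKM in males at 10–15 h.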

How the results depend on the processing

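Of the age changes of the named loci under the alternatives, 2408 kept direction and side of the threshold, 8 lost the call, 6 gained it and 2 turned: *Dsx* to -0.043 with quantile normalization and *tra2* to 0.044 without female replicate 2 of 25–40 h (its range on leaving out a library began at -0.16). A filter of 5 FPKM left 2598 loci higher and 3537 female calls shared by males, and no filter gave 7087 higher. With median-ratio scaling 1223 interactions were called and 2 loci were in the loss class. Quantile normalization gave 49 onset and 10 loss loci, and TPM 2 loss loci. Levels of 0.5 and 20 FPKM gave 27 onset and 0 loss loci, and levels of 2 and 5 FPKM gave 483 and 52. Chosen after seeing the data, the midpoint of the bounds gave 0 loss loci, and the 3538 loci that overlap no other gave 1640 higher, 859 lower, 188 interactions and 61 onset loci. Fewer loci enter under the stricter filter and without overlapping loci, and other causes were not tested. Leaving out a library gave 3816 to 4176 loci higher, 2031 to 2514 lower, 66 to 859 interactions, 129 to 153 onset and 1 to 4 loss loci. Female calls shared by males were 3451 without female replicate 1 and 3489 without female replicate 2 of 10–15 h, and at most 5562. Male calls shared by females were 3775 without male replicate 1 and 3810 without male replicate 2 of 10–15 h, and at most 6022. A lone library is taken to vary like the other groups. Replicate numbers did not pair the samples (correlations of -0.06 to 0.16), and the replicate block gave 4150 higher, 2280 lower and 587 interactions. Sequenced depth, which limits the low FPKM, is unknown.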
